A study of Mus musculus with 6 samples.

Results

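The 49 chromatin remodelling genes described here were taken by symbol from the 43346 rows of the deposited count table: Chd1 to Chd9, every Smarca, Smarcb, Smarcc, Smarcd and Smarce row, the Arid1 to Arid5 genes, every Ino80 row, Actl6a, Actl6b, the Baz1 and Baz2 genes, Ep400, Srcap, Bptf and Atrx. They were placed in BAF and PBAF (14 genes), CHD (9), ISWI (7), INO80, SRCAP and TIP60 (7), Atrx with the ATPases Smarcad1 and Smarcal1 (3), and the Arid3, Arid4 and Arid5 genes (7), which share a DNA-binding domain with BAF subunits but are not remodeller subunits themselves. Another 2 rows, the antisense RNA Ino80dos and the pseudogene Smarca5-ps, carry a matching name only.

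Chromatin remodelling complexes use the energy of ATP to slide, evict or exchange nucleosomes, and they are built around a small number of related ATPases. BAF and PBAF open chromatin at enhancers and promoters, and neurons carry a version of BAF with its own subunits. CHD proteins include the ATPases of the NuRD repressor complex, ISWI complexes space nucleosomes, and the INO80, SRCAP and TIP60 complexes handle the histone variant H2A.Z. Variants in many of these genes are known causes of intellectual disability, as are variants in Kdm5c, an X-linked gene for a demethylase of histone H3 lysine 4.

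RNA was sequenced from the brain of 6 adult male mice, 3 Kdm5c deficient and 3 wild type littermates. All were offspring of a heterozygous deficient C57BL/6 female and a wild type 129 male, so both genotypes shared an equal mixture of the strains. The nature of the deficient allele, the driver of any deletion and the brain region are not stated in the labels. Each library is treated as 1 animal, as its label says.

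Libraries held 20221675 to 24555412 counts, of which these genes took 0.486 to 0.514%. Values are CPM, a gene's share of its library's reads, scaled by the trimmed mean of M-values. The targeted gene, Kdm5c, was at 73.9, 65.5 and 78.9 CPM in deficient and 77.6, 82.8 and 84.0 CPM in wild-type mice, a log2 fold change of -0.16 ± 0.07 (SE; edgeR adjusted p = 0.196). The genotypes overlapped, and since the allele is not described this level does not check the labels. Neuronal markers summed to between 7017 and 8037 CPM in every mouse, and 4 liver genes to at most 0.783 CPM. Deficient mouse 2 stood apart: 10 cerebellar neuron markers summed to 359.4 CPM there, against 1482 and 1142 CPM in the other deficient and 1635 to 1816 CPM in the wild-type mice, and all 10 were lowest in that mouse. The cerebellar sums of deficient mice 1 and 3 also lay below those of all wild-type mice. The 8 oligodendrocyte markers summed to 5679 to 7180 CPM in deficient and 7274 to 8228 CPM in wild-type mice, without overlap. Microglia markers summed to 170.3 to 192.5 CPM in deficient against 155.2 to 163.5 CPM in wild-type mice. Newborn neuron markers summed to 151.0 to 196.2 against 144.8 to 148.4 CPM, and neither pair of sums overlapped. Of the 6 microglia markers, 2 had negative log2 fold changes, Aif1 (-0.14) and P2ry12 (-0.09). None of the 6 newborn neuron markers was negative, but Dcx was at 0.01. Astrocyte (2101 to 2662 against 2323 to 2409 CPM) and endothelial sums (197.2 to 234.6 against 202.5 to 207.2 CPM) overlapped. Of the astrocyte and newborn neuron markers, edgeR called Gja1 (log2 fold change 0.23) and Sox11 (0.51) higher. The part of these marker differences in the values of the remodeller genes was not tested. In whole tissue, fewer cells of a type and less RNA per cell cannot be told apart.

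The promoters of the remodeller genes that fell are shown first, since these are the genes on which the comparison turns. The windows, from RefSeq on GRCm38.p6, run 5′ to 3′ on the gene's own strand from 250 bases before to 50 bases after the annotated start. Capitals mark a match, on either strand, to the SP1 motif GGGCGG or the CCAAT box CCAAT.
Ino80, chr2:119477638-119477937, minus strand: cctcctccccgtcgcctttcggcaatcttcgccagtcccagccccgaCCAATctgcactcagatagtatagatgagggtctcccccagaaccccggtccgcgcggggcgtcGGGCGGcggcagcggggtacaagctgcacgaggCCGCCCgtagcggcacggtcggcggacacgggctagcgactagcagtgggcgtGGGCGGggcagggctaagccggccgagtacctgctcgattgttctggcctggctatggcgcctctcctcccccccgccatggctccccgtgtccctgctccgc
Srcap, chr7:127511733-127512032, plus strand: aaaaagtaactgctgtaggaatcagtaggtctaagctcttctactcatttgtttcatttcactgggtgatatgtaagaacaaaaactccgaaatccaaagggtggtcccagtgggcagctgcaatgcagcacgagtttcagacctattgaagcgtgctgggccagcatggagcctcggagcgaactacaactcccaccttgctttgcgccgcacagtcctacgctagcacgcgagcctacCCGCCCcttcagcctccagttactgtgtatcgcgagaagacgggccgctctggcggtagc
The Ino80 window held 3 SP1 matches, 1 CCAAT match and 32 CG dinucleotides, and the Srcap window 1 SP1 match and 16 CG dinucleotides. Of the 47 genes taken by symbol with enough reads to be tested, Ino80dos and Arid3 to Arid5 genes included, 36 had a window. Among them 86.1% held an SP1 match and 41.7% a CCAAT match, against 66.9% and 42.3% of 11265 tested genes with a window, and the median number of CG dinucleotides was 25.5 against 21. The same windows were searched for other motifs. E-box matches were in 5.56% against 11.3%, E2F in 8.33% against 9.29% and ETS in 13.9% against 17.6%. NRF1 matches were in 11.1% against 10.4%, YY1 in 16.7% against 7.84% and the TATA box in 8.33% against 8.98%. These are matches of letters, not measured sites.

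Of the 49 genes, 47 passed the filter on low counts, and 2 of them fell in deficient brain while none rose. A gene counts as called here, and as risen or fallen, where edgeR's quasi-likelihood p, adjusted over all tested genes by the Benjamini-Hochberg method, is under 0.05, and log2 fold changes are deficient over wild type. The 2 genes that fell are 4.26% of the tested members, beside 4.93% of all 15127 tested genes. Fallers alone made up 2.48% and risers 2.45% of all tested genes. At an unadjusted p under 0.05 there were 8 lower and 1 higher member by edgeR, while 24.9% of all tested genes reached that level, 12.8% lower and 12.1% higher. DESeq2 called 4 lower and 1 higher member (7.99% of all genes) and limma-voom 2 lower and none higher (4.65% of all genes). The genotypes did not overlap in 16 members (34.0%), 14 lower and 2 higher, against 30.8% of all tested genes, 16.0% lower and 14.9% higher. The share of called members was thus near that of the whole table, and differences were small: apart from Chd7, Baz1a, Arid3b and Ino80dos, every log2 fold change lay between -0.29 and 0.22.

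Most members sat slightly below wild type. Their median log2 fold change was -0.08, with 32 of 47 negative (68.1%), while the median over all tested genes was 0.00 and 49.7% were negative. Their annotated transcripts are long, with a median of 6354 nt against 3405 nt for all tested genes. Long transcripts in general were also lower. The 1835 tested genes at least that long had a median of -0.06, 65.9% of them were negative and 5.89% fell. With offsets for GC content and length the members' median was -0.0132 and 27 of 47 were negative, and Ino80 and Srcap were still past the threshold.

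**Figure D1:**
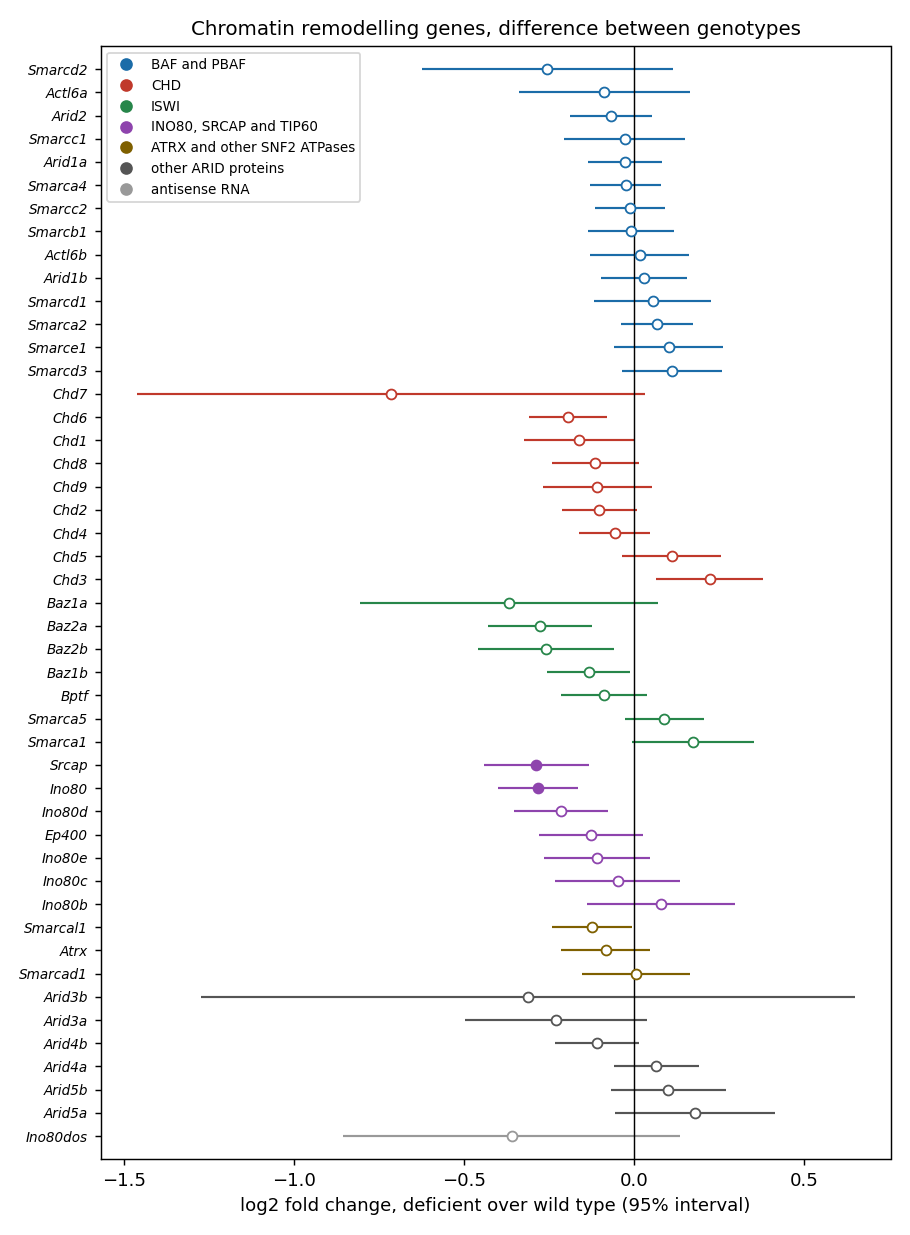
Log2 fold change (x axis, deficient over wild type) with its 95% interval for each of the 47 tested genes (y axis), coloured by complex. Filled circles mark Ino80 and Srcap, the 2 genes past an adjusted p of 0.05. BAF and PBAF genes other than Smarcd2 gather near 0, while 6 of the 7 INO80, SRCAP and TIP60 genes lie to the left of it.

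INO80, SRCAP and TIP60 genes held both calls. Ino80 encodes the ATPase of the complex that slides nucleosomes and edits H2A.Z. Its level was 37.4, 37.2 and 39.7 CPM in deficient and 45.4, 47.3 and 46.3 CPM in wild-type mice. All deficient values lay below all wild-type values. The log2 fold change was -0.28 ± 0.05 (SE), a fall of 17.8%. The adjusted p was 0.0255 (edgeR, quasi-likelihood). Ino80 lies on chromosome 2 at 119373042 to 119477687 (GRCm38), and its exons overlap no other annotated gene.

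Srcap encodes the ATPase that loads H2A.Z into promoter nucleosomes. It stood at 124.6, 115.1 and 138.4 CPM in deficient and 148.4, 157.7 and 155.3 CPM in wild-type mice, again without overlap, although the deficient mice were spread more widely. Its log2 fold change was -0.29 ± 0.07 (SE), and edgeR gave it an adjusted p of 0.0495, just inside the threshold. With a filter of 5 CPM in place of the lower one it was 0.0522 and the call was lost. Exons of Srcap (chromosome 7, 127511983 to 127561219) overlap those of 3 other annotated genes on either strand, so its reads are uncertain to that extent.

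Both calls were also lost in some fits that left out 1 mouse. Over the 6 such fits the log2 fold change was -0.313 to -0.265 for Ino80 and -0.36 to -0.225 for Srcap. The whole table had 746 calls by edgeR with all mice. Without deficient mouse 1, 2 or 3 it had 2098, 684 and 155, and without wild-type mouse 1, 2 or 3 it had 44, 53 and 99. Leaving out deficient mouse 3 or wild-type mouse 1, 2 or 3 raised the adjusted p of Ino80 to 0.0511, 0.0966, 0.123 and 0.0887 by edgeR, in that order. Srcap passed without deficient mouse 1 (0.0464) or 3 (0.045), and without deficient mouse 2 or wild-type mouse 1, 2 or 3 its adjusted p by edgeR was 0.0583, 0.127, 0.197 and 0.139. In the authors' deposited table, with the sign turned to deficient over wild type, the log2 fold changes were -0.2604 for Ino80 and -0.2661 for Srcap, with unadjusted p of 0.000396 and 0.0002073.

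The other genes of this group did not pass by edgeR. Ino80d, a subunit of the INO80 complex, was at 53.0, 50.2 and 58.3 CPM in deficient and 62.1, 62.2 and 63.1 CPM in wild-type mice. The genotypes did not overlap, and the log2 fold change was -0.21 ± 0.06 (SE; edgeR adjusted p = 0.0789), or -0.107 with GC and length offsets. Ep400, the ATPase of the TIP60 complex, was at 125.5, 120.9 and 138.1 CPM in deficient and 131.0, 138.8 and 150.0 CPM in wild-type mice. These overlapped, with a log2 fold change of -0.13 ± 0.07 (SE) and a 95% interval of -0.28 to 0.03, or -0.0629 with GC and length offsets. Ino80e had -0.11, but its exons overlap Doc2a and Hirip3 on the opposite strand. The small subunit genes Ino80b and Ino80c had 0.08 and -0.05, with intervals of -0.14 to 0.30 and -0.23 to 0.14. Summed over the 7 genes, the level was 401.8, 386.2 and 430.6 CPM in deficient and 451.9, 467.2 and 474.1 CPM in wild-type mice. These sums did not overlap, but they include Ino80, Srcap, Ino80d and Ino80e, which did not overlap singly either. They are thus no separate support for a fall of the whole group.

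**Figure D2:**
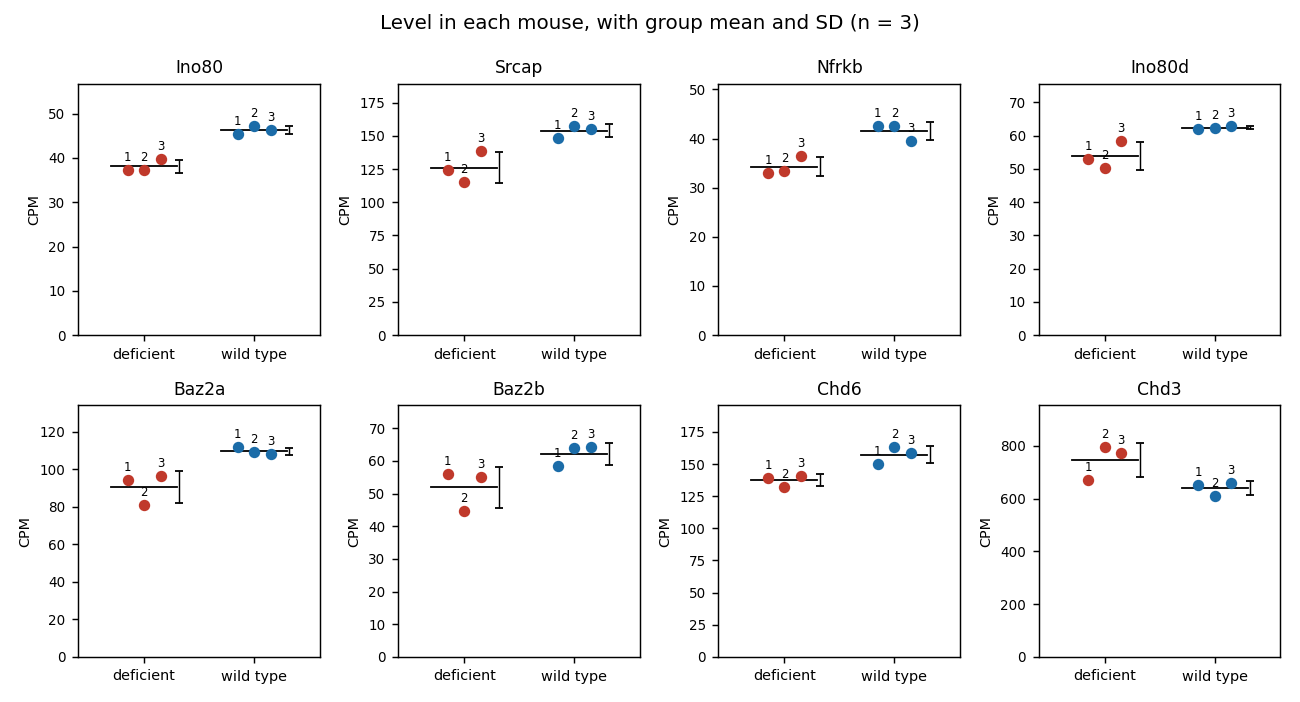
CPM (y axis, from 0) in each deficient (red) and wild-type mouse (blue), with mouse numbers beside the points and the group mean (line) and SD (bar, n = 3). Ino80, Srcap and the partner gene Nfrkb passed the test. Ino80d, Baz2a, Baz2b, Chd6 and Chd3 did not pass, although their genotypes do not overlap either.

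Other genes outside the chosen symbols were read from a list of 66, all of which were tested: 56 further subunits of these complexes, the ATRX partner Daxx and 9 further SNF2 ATPases outside them. Of these, 1 fell (1.52%) and none rose by edgeR, against 4.93% of all tested genes called. At an unadjusted p under 0.05 there were 17 by edgeR, a level that 24.9% of all tested genes reached. The median log2 fold change of the 66 was -0.01. Among the 56 subunits alone, 12 were at an unadjusted p under 0.05 and the median was 0.01. The gene that fell was Nfrkb, which encodes a subunit that regulates INO80. It was at 33.0, 33.3 and 36.5 CPM in deficient and 42.7, 42.5 and 39.5 CPM in wild-type mice, a log2 fold change of -0.28 ± 0.06 (SE; edgeR adjusted p = 0.0437). When each of the 6 mice was left out in turn, its call held only without deficient mouse 1 (0.0451 by edgeR). That fit called 13.6% of all tested genes. Among the 24 INO80, SRCAP and TIP60 partners as a whole, 16 were positive and 8 negative, with a median of 0.04. Brd8, a bromodomain subunit of TIP60, had -0.19 ± 0.05 (SE; edgeR adjusted p = 0.0674), Hells, a SNF2 ATPase of DNA methylation, -0.55 ± 0.13 (SE; edgeR adjusted p = 0.0538), and Btaf1, which removes the TATA-binding protein from DNA, -0.24 ± 0.07 (SE; edgeR adjusted p = 0.0716).

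BAF and PBAF genes lay close to their wild-type levels, apart from Smarcd2 at a log2 fold change of -0.25 (95% interval -0.63 to 0.12). None of the 14 was past the threshold by edgeR, DESeq2 or limma-voom, none had an unadjusted p under 0.05, and in none were the genotypes without overlap, which 30.8% of all tested genes were. The median log2 fold change was -0.01. Smarca4, the ATPase BRG1, was at 198.4, 195.7 and 207.4 CPM in deficient and 205.2, 198.9 and 207.6 CPM in wild-type mice, and its 95% interval of -0.13 to 0.08 lies close to 0. Its paralogue Smarca2, the ATPase BRM, had 262.8, 268.4 and 276.3 CPM against 257.0, 247.7 and 265.9 CPM, with an interval of -0.04 to 0.17. The groups overlapped for both ATPases.

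The structural subunits of BAF other than Smarcd2 had similarly small values. Smarcc2, the most abundant BAF gene per length, had a log2 fold change of -0.01 with an interval of -0.12 to 0.09. Arid1a and Arid1b, the alternative DNA-binding subunits of BAF, had -0.03 and 0.03, and Arid2, the subunit that defines PBAF, -0.07, or -0.00301 with GC and length offsets. Smarcb1, the core subunit lost in rhabdoid tumours, had -0.01 and Smarce1 0.10. Apart from Smarcd2 and Actl6a, no interval in the group reached below the -0.21 of Smarcc1 or above the 0.26 of Smarce1. These intervals give the differences that 3 mice per genotype leave possible for each gene.

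Actl6b, the actin-like subunit of neuronal BAF, was far above Actl6a, its counterpart in dividing progenitors. Per kilobase of longest transcript, the wild-type level of Actl6b was 20.8 ± 1.43 CPM per kb and that of Actl6a 4.70 ± 0.312 CPM per kb (SD, n = 3 each). The ratio of Actl6b to Actl6a per kb was 4.10, 5.61 and 4.73 in the deficient mice, against 4.84, 3.86 and 4.65 in the wild-type mice, which overlapped. Neither gene passed the test between genotypes, with log2 fold changes of 0.02 ± 0.06 and -0.09 ± 0.11 (SE). Exons of Actl6a overlap Mrpl47 on the opposite strand.

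**Figure D3:**
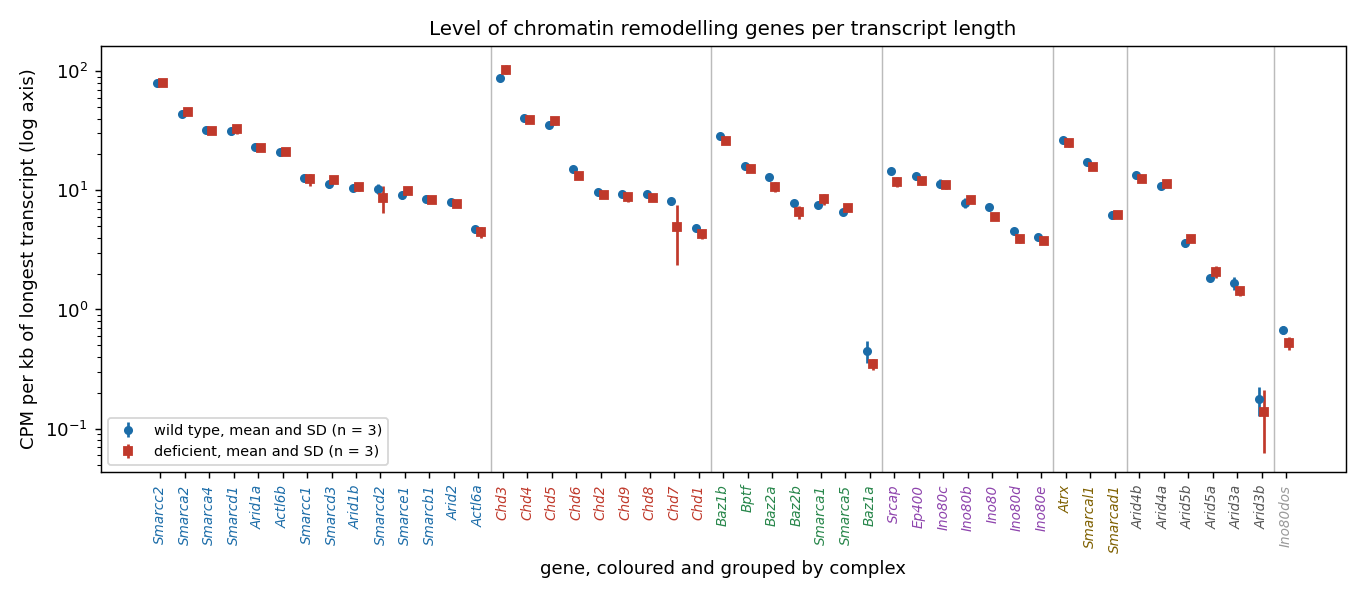
Level per kilobase of the longest annotated transcript (y axis, log scale, CPM per kb) for each tested gene (x axis), as mean and SD of 3 mice, wild type in blue and deficient in red. Chd3 and Smarcc2 are the highest in wild-type brain, at 88.2 and 79.5 CPM per kb, and Arid3b the lowest at 0.176 CPM per kb.

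The members of a family differed in level per length. In wild-type brain the BAF scaffold gene Smarcc2 was at 6.33 ± 0.0989 times the level of Smarcc1, and Arid1b at 0.452 ± 0.00268 times that of Arid1a (SD of the per-kb ratio, n = 3). Smarcd1 was the leading SMARCD gene, with Smarcd3 at 0.360 ± 0.0444 and Smarcd2 at 0.331 ± 0.0509 times its level. The ISWI ATPases Smarca1 and Smarca5 were close, at a ratio of 1.13 ± 0.0729. These ratios rest on the length of the longest annotated transcript, which may not be the one expressed.

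A ratio of 2 genes in the same library does not depend on how libraries are scaled, so 10 pairs of related subunits were compared in that way. Smarca4 to Smarca2, per kb, was 0.701, 0.677 and 0.697 in the deficient mice, against 0.742, 0.745 and 0.725 in the wild-type mice. All deficient mice lay below all wild-type mice, by a mean of -0.09 on the log2 scale. Chd3 to Chd4 was 2.31, 2.94 and 2.75 in the deficient mice, against 2.20, 2.10 and 2.27 in the wild-type mice, a log2 difference of 0.28, and the lowest deficient mouse was close to the highest wild-type mouse. A two-sided exact permutation test gave p = 0.1 for each of these pairs, the smallest value that 3 against 3 mice allow, and 0.5 after Benjamini-Hochberg adjustment over the 10 pairs. The other 8 pairs overlapped between genotypes, with exact p from 0.3 to 0.8, and no pair could have passed the threshold in this design.

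CHD genes were mostly a little lower, with Chd3 and Chd5 as the exceptions. None of the 9 passed by edgeR, 2 had an unadjusted p under 0.05, and DESeq2 called both of these, Chd6 lower and Chd3 higher, while limma-voom called none. Over all tested genes, 24.9% had an unadjusted p under 0.05 by edgeR, and DESeq2 called 7.99%. Chd6 was at 139.4, 132.2 and 140.8 CPM in deficient and 150.2, 163.0 and 158.4 CPM in wild-type mice. These did not overlap, and the log2 fold change was -0.19 ± 0.05 (SE; edgeR adjusted p = 0.0637). It was -0.114 with GC and length offsets (adjusted p = 0.142 by edgeR), and the gene passed without deficient mouse 1 (0.0495). That last fit called 13.6% of all tested genes.

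Chd3, Chd4 and Chd5 encode the alternative ATPases of NuRD. Chd3 was the most abundant of all the remodeller genes, at 671.3, 794.9 and 773.6 CPM in deficient and 652.8, 608.3 and 659.1 CPM in wild-type mice. The deficient values were all higher, with mouse 1 only just above the wild-type range, and the log2 fold change was 0.22 ± 0.07 (SE; edgeR adjusted p = 0.0957). Leaving out deficient mouse 1 brought the adjusted p to 0.0111 by edgeR, in a fit in which 13.6% of all genes were called. Chd5, known from neurons, was at 331.8, 388.6 and 366.6 CPM against 346.0, 320.7 and 340.1 CPM, with an interval of -0.03 to 0.26. Chd4 was at 268.1, 249.3 and 259.6 CPM against 274.3, 266.6 and 267.3 CPM, with an interval of -0.16 to 0.05. Both overlapped between genotypes. With GC and length offsets the log2 fold change of Chd5 went from 0.11 to 0.17 and that of Chd4 from -0.06 to -0.0316. None of the 12 NuRD partners was called by edgeR, DESeq2 or limma-voom (1 at an unadjusted p under 0.05), at a median of 0.00.

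The remaining CHD genes apart from Chd7 had small negative values, which were nearer 0 with GC and length offsets: -0.096 for Chd1, -0.0352 for Chd2, -0.0575 for Chd8 and -0.0132 for Chd9. Chd8, a gene with a strong link to autism, was at 73.3 ± 2.84 CPM in deficient and 79.3 ± 4.38 CPM in wild-type mice (SD, n = 3 each), a log2 fold change of -0.11 with an interval of -0.24 to 0.01. Chd2, mutated in epilepsy, was at 82.3 ± 3.49 against 88.3 ± 2.02 CPM (SD, n = 3 each) without overlap, and Chd9 at 105 ± 9.60 against 113 ± 5.25 CPM (SD, n = 3 each) with overlap. Chd1, which moves with elongating polymerase, was at 35.7, 30.6 and 35.4 CPM against 36.8, 37.4 and 39.4 CPM, a log2 fold change of -0.16 with an interval of -0.32 to 0.00.

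Chd7, the gene of CHARGE syndrome, had the log2 fold change farthest from 0 of the 47 tested members, with a wide spread among the deficient mice. It was at 74.1, 22.1 and 55.0 CPM in deficient and 76.3, 86.4 and 85.0 CPM in wild-type mice, so the value of deficient mouse 2 was far below all others. The log2 fold change was -0.72 ± 0.33 (SE; edgeR adjusted p = 0.219). Without that mouse it was -0.354 (adjusted p = 0.0965 by edgeR), and without deficient mouse 1 it was -1.10 and past the threshold at 0.0377. The latter fit called 13.6% of all tested genes. Chd7 is known to be high in cerebellar granule cells, and the order of the deficient mice was the same for Chd7 as for the summed cerebellar markers, which were at 1482, 359.4 and 1142 CPM. The part of the cerebellar level in the value of Chd7 was not tested.

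Smarcd2 and the BAF partner Dpf3, chosen after their values were seen, were also lowest in that mouse. Smarcd2 had 28.91, 17.25 and 25.04 CPM in deficient and 25.5, 30.5 and 28.9 CPM in wild-type mice. Its log2 fold change went from -0.25 with all mice to -0.0658 without deficient mouse 2. Dpf3, a subunit that reads histone acetylation, had 11.2, 4.57 and 8.79 CPM against 11.9, 15.6 and 14.8 CPM, with a log2 fold change of -0.79 ± 0.26 (SE; edgeR adjusted p = 0.115). In all, 23 of the 47 tested members were lowest in deficient mouse 2 (48.9%), against 26.9% of all tested genes and 40.1% of tested genes at least as long as the median member. Among members it was 70.8% of those with longer and 26.1% of those with shorter transcripts. Without it the median log2 fold change of the members was -0.0633, and 2 were called, Ino80 and Baz2a (4.47% of all genes were called in that fit).

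**Figure D4:**
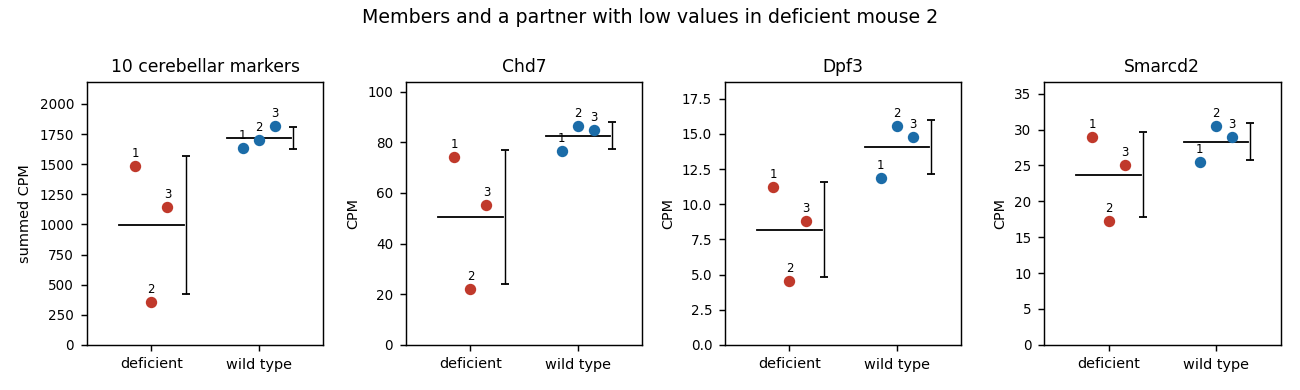
Summed CPM of 10 cerebellar neuron markers (left) and CPM of Chd7, Dpf3 and Smarcd2 in each mouse (y axes from 0), deficient in red and wild type in blue, with mouse numbers, group mean (line) and SD (bar, n = 3). Deficient mouse 2 is the lowest of the 6 mice in each panel, at 359.4 CPM for the markers and 22.1 CPM for Chd7.

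ISWI genes split between the ATPases and the large bromodomain subunits. Baz2a, the subunit TIP5 that silences ribosomal DNA, was at 94.1, 80.9 and 96.6 CPM in deficient and 111.7, 109.3 and 108.0 CPM in wild-type mice. The genotypes did not overlap, and the log2 fold change of -0.28 ± 0.07 (SE) missed the threshold at an adjusted p of 0.053 by edgeR. The adjusted p was 0.01 by DESeq2, and by edgeR it was 0.0468 with upper quartile scaling, 0.0322 with no filter on low counts, 0.0299 without deficient mouse 1 and 0.0449 without deficient mouse 2. It was not past the threshold by limma-voom (0.0543), nor by edgeR with GC and length offsets (0.0658), without deficient mouse 3 (0.0702) or without wild-type mouse 1, 2 or 3 (0.164, 0.182 and 0.129). Its paralogue Baz2b, which passed without deficient mouse 1 (0.0487 by edgeR), had 56.1, 44.5 and 55.1 CPM against 58.4, 63.8 and 64.2 CPM, and Baz1b, a gene of the Williams syndrome region, had -0.13 ± 0.05 (SE; edgeR adjusted p = 0.166). The fit without deficient mouse 1, in which Baz2a and Baz2b passed, called 13.6% of all tested genes. Baz1a was low, at 43 to 70 reads per mouse, and its interval of -0.81 to 0.07 is correspondingly wide.

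The ISWI ATPases lay on the other side of 0 without passing. Smarca1, the ATPase SNF2L of neurons, was at 36.38, 44.61 and 39.96 CPM in deficient and 36.4, 37.0 and 34.0 CPM in wild-type mice, a log2 fold change of 0.17 ± 0.08 (SE; edgeR adjusted p = 0.216). Smarca5, the ATPase SNF2H of dividing cells, had 42.2, 44.5 and 42.5 CPM against 39.91, 39.98 and 41.50 CPM, a log2 fold change of 0.09 without overlap, or 0.152 with GC and length offsets. Bptf, the large subunit that binds methylated H3 lysine 4, had -0.09 with an interval of -0.22 to 0.04, or -0.00572 with the offsets. None of the 7 ISWI genes passed by edgeR or limma-voom, 3 had an unadjusted p under 0.05, and DESeq2 called 1. Over all tested genes, 24.9% had an unadjusted p under 0.05 by edgeR, and DESeq2 called 7.99%.

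Atrx, the X-linked ATPase that loads histone H3.3 at repeats, was at 236.9, 258.2 and 268.1 CPM in deficient and 260.1, 269.4 and 279.5 CPM in wild-type mice. These overlapped, with an interval of -0.21 to 0.05, and the sign turned with GC and length offsets. Smarcal1, which rewinds DNA at stalled forks, had -0.12 with an interval of -0.24 to -0.01 and an adjusted p of 0.186 by edgeR, and Smarcad1 had 0.00 with an interval of -0.15 to 0.16. None of the 3 was called by edgeR, DESeq2 or limma-voom, and only Smarcal1 had an unadjusted p under 0.05.

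The Arid3, Arid4 and Arid5 genes had no call by edgeR, DESeq2 or limma-voom and none at an unadjusted p under 0.05 by edgeR, with 3 of 6 tested genes negative. Arid4a and Arid4b, subunits of a histone deacetylase complex, had 0.06 and -0.11, the latter -0.0492 with GC and length offsets. Arid5a and Arid5b had 0.18 and 0.10, with intervals of -0.06 to 0.41 and -0.07 to 0.27. Arid3a had -0.23 with an interval of -0.50 to 0.04. Arid3b had only 5 to 20 reads per mouse and Arid3c 0 in each deficient and 1, 2 and 0 in the wild-type mice, and Smarca5-ps had none in any mouse, where a count of 0 allows up to 3 reads or 0.122 to 0.148 CPM. Ino80dos, at 17 to 26 reads, had a log2 fold change of -0.36 with an interval of -0.86 to 0.14, and its exons overlap those of Ino80d.

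**Figure D5:**
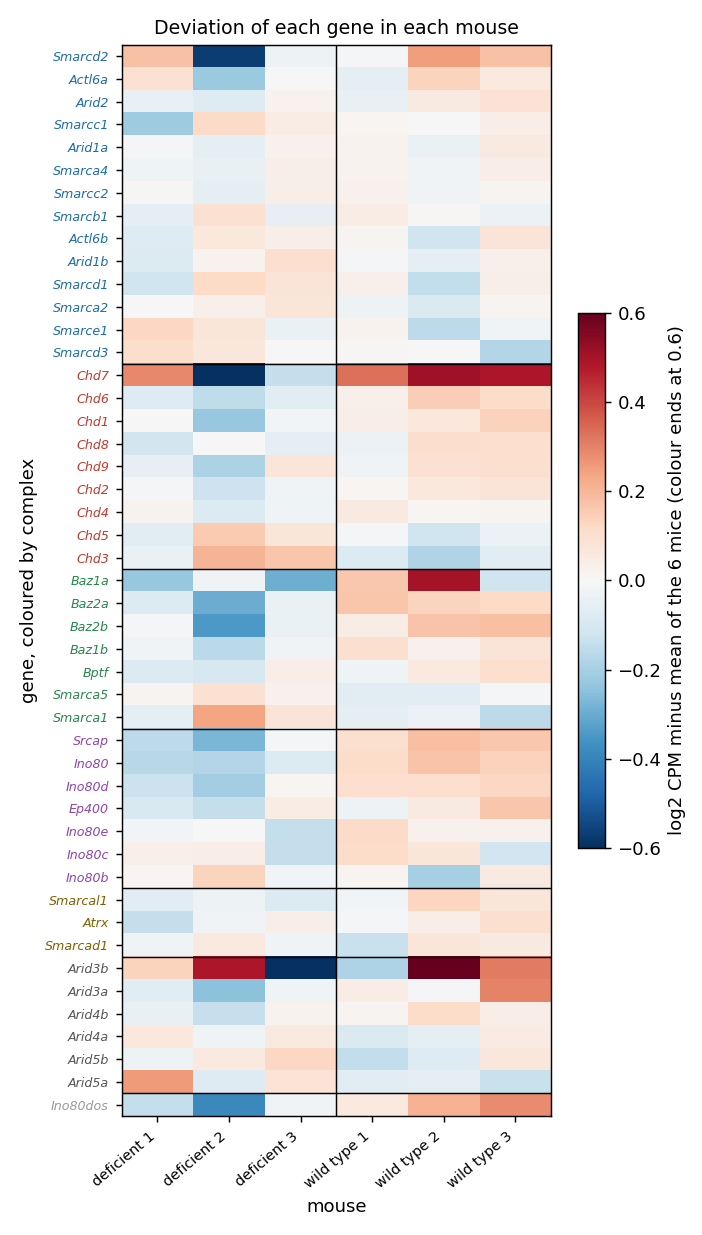
Log2 CPM of each tested gene (rows, grouped and coloured by complex) in each mouse (columns) minus its mean over the 6 mice, blue lower and red higher, with colours ending at 0.6. Ino80, Srcap and Ino80d are blue or pale in the deficient mice and red in the wild-type mice, Chd3 and Chd5 are reddest in deficient mouse 2, and the BAF block has no such division.

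Across mice, the median deviation of the 47 genes was -0.04, -0.05 and 0.00 on the log2 scale in the deficient mice, against 0.02, 0.04 and 0.06 in the wild-type mice. Deficient mouse 3 was thus nearest to the wild-type mice. Of the 14 genes whose deficient values all lay below the wild-type values, 4 were CHD genes, 4 INO80, SRCAP and TIP60 genes and 3 ISWI genes, and none was a BAF gene. These 14 are 29.8% of the tested members. The share was 16.0% over all tested genes and 26.4% over those at least as long as the median member. No member other than Ino80 and Srcap passed the threshold by edgeR with all mice.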

How the data were processed

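Brain RNA of 6 mice was compared. The deposited gene counts, whole numbers per mouse per the file headers, were made by the authors on GRCm38 with DESeq2 as a tool, per the submitters' processing notes. For the aligner, the counter, its annotation and its strand setting: not given in the sources used here. The authors' deposited table also holds a log2 fold change, wild type over deficient, and an unadjusted p-value per gene, per the file headers. Counts were tested here with edgeR 4.0.16 in R 4.3.3: at least 10 counts by edgeR's filter (total 15), trimmed mean of M-values scaling, a quasi-likelihood test of genotype and Benjamini-Hochberg adjustment over 15127 genes, with a threshold of 0.05. Intervals of 95% use the fitted SE. Libraries of 20221675 to 24555412 counts set the counting precision. The script was tested on simulated data.

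Alternatives were DESeq2 1.42.0, limma 3.58.1 (voom), other scalings and filters, GC and length offsets, a replicate block and leaving out each mouse. Ratios of related genes used an exact permutation test. Transcript lengths, GC and exon overlaps came from GENCODE M21 and promoters from RefSeq GRCm38.p6. Members and lists were chosen with earlier results of these data known, and the motifs and printed promoters after values were seen. Named with values in every mouse were the members past the threshold or the 6 of smallest p. The ATPases were named by means or values. The 4 partners of smallest p were named, with values in every mouse for Nfrkb only. Others shown with values in every mouse were chosen after their values were seen. The result of 1 marker gene is not reported here.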

Additional observations from a re-analysis of the deposited data

How the results depend on the processing

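Of 47 tested members, 41 kept their sign in every alternative that used all mice and 36 also when any mouse was left out. The whole table had 1121 calls with no filter on low counts, 1209 by DESeq2, and 44 to 2098 when a mouse was left out (deficient mouse 1 gave 2098 and mouse 3 155; wild-type mouse 1, 2 and 3 gave 44, 53 and 99). Higher members numbered 1 by DESeq2 and 0 to 1 without a mouse. Lower members numbered 1 with a filter of 5 CPM (Ino80, without Srcap), 4 by DESeq2, and 0 to 6 without a mouse. The members' median was -0.0132 with GC and length offsets and -0.103 to -0.0601 without a mouse. Replicate numbers did not pair the mice (correlations of -0.0604, -0.0602 and 0.14). With the replicate block 58 genes and 0 members were called by edgeR (adjusted p of 0.0888 for Ino80 and 0.104 for Srcap), 10 members at an unadjusted p under 0.05, and with the block and offsets 56 genes and 0 members, also 10 unadjusted, at a median of -0.0149.

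With the offsets, and with the block added, the sign turned for Atrx (0.0325 and 0.0323), Arid1a (0.0201 and 0.0204), Smarca4 (0.00221 both times) and Smarcb1 (0.0360 and 0.0341), and with the offsets alone for Smarcc1 (0.00228). Without scaling Smarcad1 was at -0.00933. Leaving out a mouse gave ranges across 0 for Arid1b (-0.015 to 0.0767), Ino80c (-0.112 to 0.00952), Smarcc1 (-0.0954 to 0.0662), Actl6b (-0.0335 to 0.0624), Smarcc2 (-0.034 to 0.0147), Smarcad1 (-0.0578 to 0.0432), Smarcb1 (-0.0581 to 0.0206) and Arid3b (-0.703 to 0.0541). The log2 differences of ratios did so for Actl6b to Actl6a (-0.0074 to 0.218), Smarcc2 to Smarcc1 (-0.0818 to 0.116), Smarcd3 to Smarcd1 (-0.0366 to 0.148) and Baz2b to Baz2a (-0.0423 to 0.0499). The causes were not tested. Depth limits Arid3b, Arid3c, Baz1a and Ino80dos, with few reads per mouse.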

Other observations

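The BAF partner subunits outside the chosen symbols had a median log2 fold change of -0.06 over 16 genes, and 5 had an unadjusted p under 0.05 without a call by edgeR, DESeq2 or limma-voom. The 9 further SNF2 ATPases and the ATRX partner Daxx together had a median of -0.14, with 8 negative and 5 at an unadjusted p under 0.05, again without a call by edgeR, DESeq2 or limma-voom. Over the 19 ATPase genes among the members, 13 were negative (68.4%) and both calls, Ino80 and Srcap, were in this group. Of the members with longer transcripts 20 of 24 were negative (83.3%), and of those with shorter transcripts 12 of 23 (52.2%). Among all tested genes, 24.9% had an unadjusted p under 0.05 by edgeR and 49.7% were negative. The negative share was 65.9% for tested genes at least as long as the median member and 47.4% for shorter ones.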
